A study of Homo sapiens with 15 samples.

Results

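The 4 HF HDM libraries of a small RNA sequencing study of DiFi, an established human colorectal cancer line, were set against its 2 media libraries. The HF HDM arm holds filtered and unfiltered HDM of HF6 and of HF7. The single HDM media and regular media libraries were joined as 1 arm. The members were defined by their labels, with earlier results of these data known. They are 6 of the 15 samples in the labels, of which 14 have a column in the deposited table; the HDM medium without cells was not analysed here. The stated aim of the series is to try culture conditions for collecting secreted carriers of small RNA, and its title names supermeres, small extracellular particles without a membrane. All 6 libraries are labelled with the same cell line and tissue, and the labels give no drug, time or genetic change for any of them. The labels do not spell out HF or HDM, and do not say whether cells had been in the media of the HDM media and regular media libraries. They also do not say whether the filtered and unfiltered libraries of one HF number were drawn from the same harvest, so the 4 HF HDM libraries may stand for only 2 sources. The 2 media are different media and not replicates of one condition.

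A miRNA is a short RNA that guides an Argonaute protein to messenger RNAs, mainly through its seed, bases 2 to 8 from the 5′ end. Cells release miRNAs in vesicles, bound to proteins and in particles such as exomeres and supermeres, so culture fluid holds a mixture of carriers. In gut epithelium, the miR-200 family holds cells in their epithelial state by targeting ZEB1 and ZEB2, and miR-192, miR-194 and miR-215 are typical of intestinal cells. The sequences of the miRNAs on which the comparison turns are given next, from RefSeq (GRCh38.p14), with the seed in capitals. The first 5 passed the test between the arms, the next 8 share a seed with them or belong to the miR-320 and let-7 families, and miR-12136 is shown for its difference between filtered and unfiltered HDM.

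miR-1246: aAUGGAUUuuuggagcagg
miR-375-3p: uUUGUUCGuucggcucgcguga
miR-326: cCUCUGGGcccuuccuccag
miR-15a-5p: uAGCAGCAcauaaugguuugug
miR-29b-3p: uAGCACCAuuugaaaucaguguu
miR-16-5p: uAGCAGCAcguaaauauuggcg
miR-29a-3p: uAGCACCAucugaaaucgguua
miR-320b: aAAAGCUGgguugagagggcaa
miR-320c: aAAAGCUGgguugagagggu
miR-320d: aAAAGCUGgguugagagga
let-7a-5p: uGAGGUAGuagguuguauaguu
let-7f-5p: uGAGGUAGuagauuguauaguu
let-7g-5p: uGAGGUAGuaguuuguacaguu
miR-12136: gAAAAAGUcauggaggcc

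miR-15a-5p and miR-16-5p share the seed AGCAGCA, and miR-29b-3p and miR-29a-3p the seed AGCACCA. The 3 miR-320 entries printed share AAAGCUG and lie within 1 mismatch of each other, so reads could be split among them. The let-7 entries share GAGGUAG, and let-7a-5p and let-7f-5p also lie within 1 mismatch. Of the 465 miRNAs tested, 419 have a RefSeq entry, and all 419 are identical to the deposited sequence.

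The arms differed in depth, with 4811436 counts in HDM media and 4896917 in regular media against 205738 to 2479939 in HF HDM. The smallest library was unfiltered HF7, in which 3 counts correspond to 14.6 CPM, the count scaled to a common library total. At its depth, the entries expected to be detected were 498 to 519.87 in HF HDM, 529.58 in HDM media and 502.62 in regular media, so the higher raw numbers in the media (1037 and 1035, against 498 to 944) moved with depth. Both arms were rich in epithelial miRNAs. The summed total-count CPM of the miR-200 family was 152590 to 155750 in HF HDM and 138110 to 139030 in media, and that of the intestinal group was 84413 to 99144 and 109150 to 111350. Of 5 erythroid and liver markers, the summed level was at most 3.50 CPM in HF HDM and 6.33 in media, with miR-486-5p at 0 in all 6 libraries. Of 7 endothelial and stromal markers, 6 are in the table, with sums of 25.7 to 43.0 CPM in HF HDM and 18.9 to 30.4 in media and with miR-143-3p and miR-214-3p at 0 throughout. The 3 muscle markers summed to 4.86 to 13.3 CPM in HF HDM and at most 10.006 in media, and the 5 neural markers to 565 to 819 and 569 to 615, with miR-206 and miR-124-3p at 0 in all 6 libraries.

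HF HDM and media libraries were alike in most miRNAs. For the 192 miRNAs averaging 100 CPM or more, the correlation of log2 CPM was 0.973 to 0.984 between filtered HF HDM and media, 0.979 to 0.989 between unfiltered HF HDM and media, and 0.991 between the 2 media. These are correlations across miRNAs, which are not replicates. Values from here on are TMM-normalised CPM, in which library totals are scaled by factors computed from most miRNAs, and folds are HF HDM relative to media. edgeR's quasi-likelihood test called 5 of 465 miRNAs (1.08%) at a Benjamini-Hochberg adjusted p under 0.05, with miR-1246 and miR-375-3p higher in HF HDM (0.430%) and miR-326, miR-15a-5p and miR-29b-3p lower (0.645%). At an unadjusted p under 0.05 there were 91 (19.6%), 41 higher and 50 lower. The libraries of the arms did not overlap for 110 (23.7%), 49 higher and 61 lower. The call count depended on single HF HDM libraries: 2 without unfiltered HF7, 9 without filtered HF6, 13 without filtered HF7 and 36 without unfiltered HF6. Leaving out 1 of the media leaves a single media library, and those counts are not given. Giving filtered and unfiltered HDM a level each, an alternative chosen after seeing the data, called 49 (10.5%), 18 higher and 31 lower. A fit of all 14 libraries by group tested 637 miRNAs and called 0. Of these 637, 31 were at an unadjusted p under 0.05, against 91 of 465 with the 6 libraries. Summing filtered and unfiltered libraries within HF number, which leaves 2 HF HDM samples, called 6 of 539, among them 4 of the 5, with miR-326 at an edgeR adjusted p of 0.0544. With HF number as a replicate block in edgeR only miR-1246 was called, and the adjusted p was 0.0658 for miR-375-3p, 0.0620 for miR-326 and 0.106 for miR-15a-5p and miR-29b-3p. Over 21 alternatives miR-1246 was called in 20, miR-375-3p and miR-326 in 14 each, and miR-15a-5p and miR-29b-3p in 13 each, and all 5 kept their direction in all 21.

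**Figure D1:**
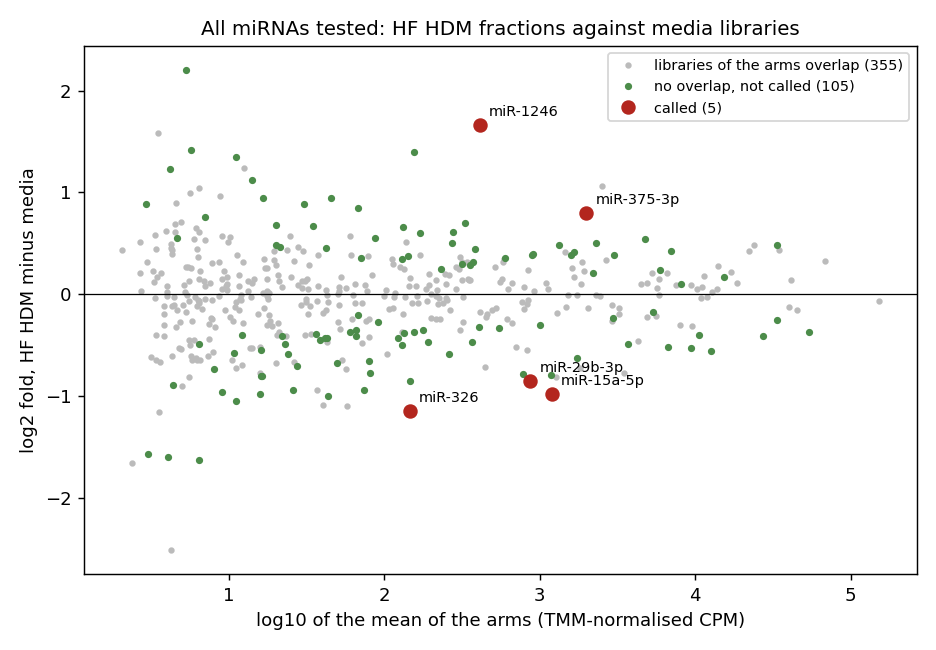
Each point is 1 of 465 miRNAs, with the log10 of the mean of the arms in TMM-normalised CPM on the x axis and the log2 fold of HF HDM relative to media on the y axis. Most points lie near 0, and the 5 called miRNAs are named, with miR-1246 at 1.67 and miR-326 at -1.15.

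miR-1246 showed the clearest difference. It is an entry at chromosome 2, 176601024 to 176601042 (GRCh38, minus strand), outside any other annotated gene, and its 19 bases are also found whole in 19 small nuclear RNA transcripts of GENCODE release 29, RNU2-1 among them, so reads of U2 cannot be told apart from it. It stood at 721 CPM in filtered HF6, 591 in filtered HF7, 624 in unfiltered HF6 and 575 in unfiltered HF7, against 218 in HDM media and 179 in regular media. All 4 HF HDM values lay within a narrow band well above both media. The fold was 3.17, or 1.67 ± 0.21 on the log2 scale (standard error, edgeR adjusted p = 1.626e-05). By total-count CPM the media held 236 (exact 95% interval 222.4 to 250) and 168 (157 to 180), intervals that cover counting error only. The 8 cell libraries of the series, by the same total-count measure, ran from 192 to 6956 with a median of 837, so both media lay near the lowest of them.

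miR-375-3p, known from endocrine and intestinal secretory cells, was the other miRNA called higher. It lies at chromosome 2, 219001648 to 219001669 (minus strand), in no other gene. It held 2480 CPM in filtered HF6, 2685 in filtered HF7, 2295 in unfiltered HF6 and 2651 in unfiltered HF7, against 1568 in HDM media and 1344 in regular media. The arms did not overlap, and the fold was 1.73 (log2 0.79 ± 0.17, edgeR adjusted p = 0.0204).

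miR-326 was lower in HF HDM by a log2 of 1.15, at -1.15 ± 0.23 (edgeR adjusted p = 0.0120, and 0.0544 summed within HF number). Its locus, chromosome 11, 75335108 to 75335127 (minus strand), is in an intron of ARRB1, which encodes beta-arrestin 1. It stood at 77.8 CPM in filtered HF6, 85.4 in filtered HF7, 104 in unfiltered HF6 and 99.8 in unfiltered HF7. HDM media held 256 CPM and regular media 145, so the 2 media differed from each other by more than the 4 HF HDM libraries did. In the cell libraries it ran from 7.31 to 60.6 total-count CPM, below all 6 libraries compared here, whose lowest total-count value was 77.8.

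miR-15a-5p targets BCL2 among others and lies at chromosome 13, 50049167 to 50049188 (minus strand), in an intron of DLEU2, beside miR-16-5p at 50049027 to 50049048. It held 555 CPM in filtered HF6, 659 in filtered HF7, 1193 in unfiltered HF6 and 813 in unfiltered HF7, against 1897 in HDM media and 1276 in regular media. Unfiltered HF6 came close to regular media, and by total-count CPM the 2 overlapped, at 1212 and 1201. The log2 fold was -0.98 ± 0.23 (edgeR adjusted p = 0.0324). miR-29b-3p, whose family targets collagens and other matrix genes, has 2 locations, on chromosome 1 at 207802450 to 207802472 in an exon of MIR29B2CHG and on chromosome 7 at 130877467 to 130877489 within LINC-PINT. It held 492, 523, 777 and 703 CPM in filtered HF6, filtered HF7, unfiltered HF6 and unfiltered HF7, against 1273 and 964 in HDM and regular media. No HF HDM library reached either medium, and the log2 fold was -0.85 ± 0.20 (edgeR adjusted p = 0.0324).

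**Figure D2:**
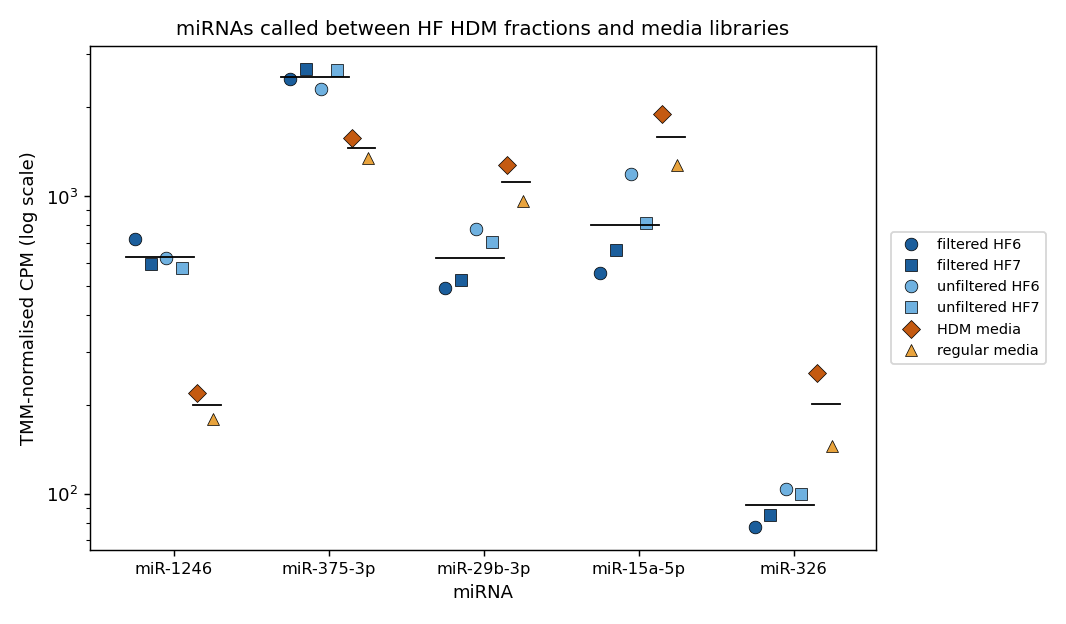
TMM-normalised CPM (log scale) of the 5 called miRNAs in each library, with lines at the means of the 4 HF HDM and the 2 media libraries. miR-1246 and miR-375-3p lie higher in all 4 HF HDM libraries, and the 2 filtered libraries are the lowest for miR-29b-3p, miR-15a-5p and miR-326.

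In the miR-320, miR-378, miR-148a-3p, miR-15/16 and miR-29 seed families all tested folds had one sign, although only miR-15a-5p and miR-29b-3p were called. In miR-15/16 this counts miR-15b-5p at -0.005, whose sign changed in other fits. The miR-320 entries lie within 1 mismatch of each other and may share reads, so their folds are not independent. The other seed families with at least 3 tested members held folds of both signs. All 4 members of the miR-320 family, whose precursors are made without Drosha, had HF HDM libraries above both media. miR-320a-3p held 5498 and 5768 CPM in the filtered and 5382 and 5925 in the unfiltered libraries, against 4447 in HDM media and 3288 in regular media. Its log2 fold of 0.54 ± 0.17 was not called (edgeR adjusted p = 0.0678), nor were miR-320b at 0.62 ± 0.20 and miR-320c at 0.66 ± 0.22. miR-484, made by a similar route, stood at 0.11 ± 0.18. In the list of 7 tested miRNAs made without Drosha, 6 had positive folds, 4 did not overlap between arms, all higher, and the median was 0.54, where the median of all miRNAs was -0.01. Of all miRNAs, 10.5% were higher without overlap. The media were unequal here, and the median was 0.31 against HDM media alone and 0.75 against regular media alone.

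The let-7 family, which restrains growth genes such as RAS and HMGA2, had 0 of 9 members called, where 1.08% of all miRNAs were. Folds were positive in 8, with a median of 0.43. At an unadjusted p under 0.05, 6 of 9 were higher, against 8.82% of all miRNAs. Without overlap between the arms, 3 of 9 were higher, where 10.5% of all miRNAs were. let-7a-5p held 35307 and 26535 CPM in filtered HF6 and HF7, 21174 and 28311 in unfiltered HF6 and HF7, and 17479 and 22421 in HDM and regular media. Unfiltered HF6 lay below regular media, so the arms overlapped, although by total-count CPM they did not. Its log2 fold was 0.48 ± 0.18, with let-7f-5p at 0.43 ± 0.17 and let-7g-5p at 0.43 ± 0.17, none called. let-7b-5p stood at 0.06 ± 0.17. The family median was 0.55 for filtered and 0.26 for unfiltered HDM against the same media.

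The miR-15/16 family, which shares the seed of miR-15a-5p and slows the cell cycle, had 1 of 5 tested members called. Of all miRNAs, 1.08% were called. All 5 folds of the family were negative (median -0.39). miR-16-5p held 10071, 9811, 11888 and 9299 CPM in filtered HF6, filtered HF7, unfiltered HF6 and unfiltered HF7, against 14313 in HDM media and 15949 in regular media. Its arms did not overlap, and its log2 fold of -0.56 ± 0.15 was not called (edgeR adjusted p = 0.0574). miR-15b-5p, at -0.005 ± 0.16, did not share the difference, and miR-195-5p stood at -0.27 ± 0.24. In the miR-29 family 1 of 7 was called and 6 had negative folds. The 3 members with the AGCACCA seed lay lower in HF HDM without overlap, where 13.1% of all miRNAs did: miR-29a-3p stood at -0.25 ± 0.16 and miR-29c-3p at -0.37 ± 0.20, neither called. miR-29b-1-5p, the other arm of a miR-29b hairpin, was at -0.06 ± 0.20.

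The miR-17-92 cluster and its paralogs, which promote proliferation and are often amplified or raised in tumours, had 0 of 20 tested members called. Of all miRNAs, 1.08% were called. Folds were negative in 13 and positive in 7, with a median of -0.23. At an unadjusted p under 0.05, 6 were lower and 0 higher, where 10.8% of all miRNAs were lower. The most abundant members did not move together. miR-92a-3p stood at -0.12 ± 0.15, miR-20a-5p at 0.05 ± 0.16, miR-93-5p at 0.18 ± 0.16 and miR-19b-3p at -0.40 ± 0.16. miR-19b-3p held 7695 to 11214 CPM in HF HDM and 12024 and 11998 in the media, with no overlap, although by total-count CPM the arms overlapped.

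**Figure D3:**
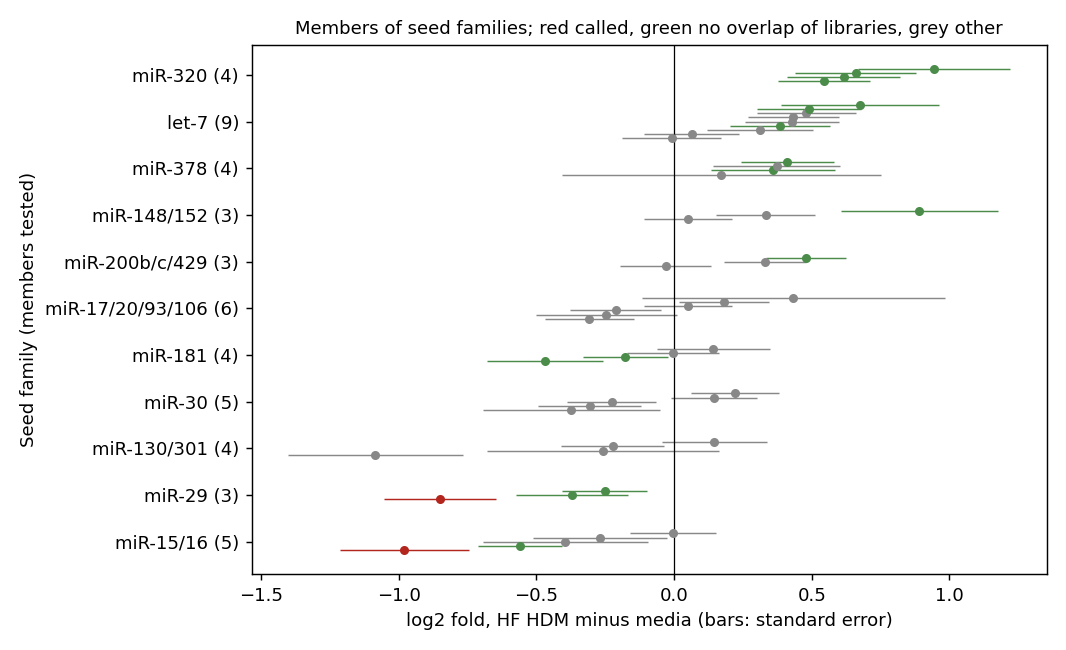
Log2 fold of HF HDM relative to media (x axis, bars show the standard error) for each tested member of 11 seed families. The 4 miR-320 members lie to the right of 0. The 5 miR-15/16 members lie to the left, miR-15b-5p almost at 0. The 2 called members shown in red are miR-15a-5p and miR-29b-3p.

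Epithelial miRNAs showed no common direction. In the miR-200 family 0 of 9 members were called, where 1.08% of all miRNAs were. Folds were negative in 6 and positive in 3, with a median of -0.06. At an unadjusted p under 0.05, 2 were higher and 3 lower, where 8.82% and 10.8% of all miRNAs were. Without overlap between the arms, 1 was higher and 3 were lower, where 10.5% and 13.1% of all miRNAs were. The most abundant, miR-200b-3p, ran from 67391 to 82830 CPM in HF HDM, with 53243 in HDM media and 67787 in regular media (log2 0.33 ± 0.15). miR-200c-3p held 37321 to 40309 CPM in HF HDM against 29612 and 26148 in HDM and regular media. Those ranges did not overlap, and the fold of 0.48 ± 0.14 was not called (edgeR adjusted p = 0.0678). miR-200a-3p lay the other way, at 20375 to 25157 CPM against 28142 and 34273 (-0.41 ± 0.15), also without overlap and not called. miR-429 stood at -0.03 ± 0.17. Of the intestinal miRNAs 0 of 5 tested were called. miR-194-5p was at -0.38 ± 0.15 and miR-194-3p, the other arm, at 0.31 ± 0.21, while miR-192-5p was at -0.15 ± 0.15, with miR-215-5p at -0.13 ± 0.19.

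miR-21-5p, abundant in many carcinomas, was the most abundant entry of all 6 libraries, at 130923 to 169506 CPM in HF HDM and 135598 and 173995 in HDM and regular media (-0.06 ± 0.15). miR-7-5p, among the 10 most abundant, stood at 0.14 ± 0.16. miR-125b-5p was at 0.11 ± 0.18. miR-1247-5p ran from 214 to 328 CPM in HF HDM, with 333 in HDM media and 155 in regular media, so the media lay on both sides (0.19 ± 0.25). miR-4521 held 656 to 900 CPM in HF HDM and 698 and 886 in the media (-0.08 ± 0.19). miR-100-5p had at most 15 counts, miR-451a at most 11 and miR-122-5p at most 4 in any of the 6 libraries, and they were not tested.

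Filtered and unfiltered HF HDM stood in different relations to the media. With a level for each, edgeR called 17 of 465 miRNAs between filtered and unfiltered (3.66%), 16 lower and 1 higher in filtered HDM, with 47 (10.1%) at an unadjusted p under 0.05. The difference of the folds against media is this same contrast, since both use the same 2 media. Filtered HDM differed from media in 55 miRNAs (11.8%), 20 higher (4.30%) and 35 lower (7.53%). Unfiltered HDM differed in 8 (1.72%), 6 higher (1.29%) and 2 lower (0.430%). The depths were unequal, with 205738 counts in unfiltered HF7 against 2479939 and 1712723 in filtered HF6 and HF7. The part of depth in these numbers was not tested. The calls between filtered and unfiltered depended on single HF HDM libraries, and leaving out 1 of them leaves a single library on its side. The fit of all 14 libraries called 0 of 637 miRNAs, with 15 of the 637 at an unadjusted p under 0.05.

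Some of the 16 were lowest in filtered HDM, with unfiltered HDM nearer to the media. miR-141-3p, which also targets ZEB1, held 4265 and 3307 CPM in unfiltered HF6 and HF7, 5387 and 3396 in HDM and regular media, and 1171 and 1537 in filtered HF6 and HF7. Against media its log2 fold was -1.70 ± 0.19 for filtered and -0.21 ± 0.19 for unfiltered HDM. miR-32-5p, encoded within an intron of the gene TMEM245, held 169 and 138 CPM in unfiltered HDM, 210 and 163 in the media and 65.3 and 58.2 in filtered HDM. let-7i-3p, the minor arm of its hairpin, held 63.3 and 61.8 CPM in unfiltered HDM and 88.1 and 62.7 in the media, with 16.5 and 16.7 in filtered HDM. The 2 arms of the leukocyte-associated miR-142 hairpin were lower too. miR-142-3p lay at -1.14 ± 0.19 for filtered and -0.39 ± 0.19 for unfiltered HDM, and miR-142-5p at -1.20 ± 0.20 and -0.08 ± 0.20. miR-15a-5p, called over the whole arm, was also among the 16, at -1.39 ± 0.20 and -0.64 ± 0.20. In each of these both filtered libraries lay below all 4 others. The 5 tested leukocyte-associated miRNAs did not fall as a list, with medians against media of 0.025 for filtered and -0.055 for unfiltered HDM.

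Others lay near the media in filtered HDM and above both media in unfiltered HDM. miR-146a-5p, which damps Toll-like receptor signalling through IRAK1 and TRAF6, held 400 and 271 CPM in unfiltered HF6 and HF7, 125 and 104 in filtered HF6 and HF7, and 99.8 and 67.9 in HDM and regular media. Its log2 fold over the whole arm, 1.40 ± 0.38, was not called (edgeR adjusted p = 0.0574), and it was 2.05 ± 0.24 for unfiltered and 0.45 ± 0.23 for filtered HDM. By total-count CPM its arms overlapped. miR-12136 held 4836 and 5612 CPM in unfiltered, 1338 and 1798 in filtered HDM, and 1634 and 1600 in the media. Its sequence lies whole in the mitochondrial transfer RNA MT-TS1, so reads of that RNA cannot be told apart from it. miR-210-3p, which hypoxia induces in most cell types, held 190 and 204 CPM in unfiltered HDM, 86.7 and 111 in filtered HDM, and 136 and 103 in the media. miR-4497 was the one miRNA higher in filtered HDM, at 23.8 and 27.9 CPM against 6.98 and 9.50 in unfiltered HDM and 9.23 and 6.29 in the media, and its value in unfiltered HF7 rests on 2 counts.

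**Figure D4:**
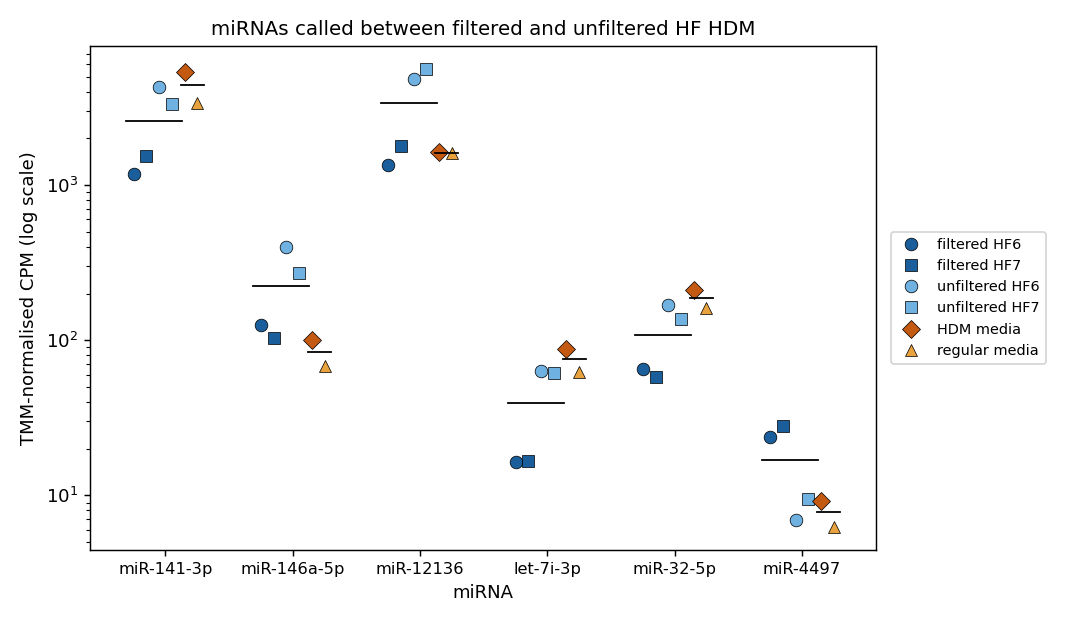
TMM-normalised CPM (log scale) of 6 miRNAs called between filtered and unfiltered HF HDM in each library, with lines at the means of the 4 HF HDM and the 2 media libraries. Filtered libraries fall below all others for miR-141-3p, let-7i-3p and miR-32-5p, and unfiltered libraries lie above all others for miR-146a-5p and miR-12136.

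Leukocyte-associated miRNAs had 0 of 5 tested members called over the whole arm, where 1.08% of all miRNAs were. Their median was -0.004, with summed total-count levels of 1738 to 3575 CPM in HF HDM and 2881 to 4437 in media. miR-155-5p was at 0.25 ± 0.20. The median was -0.50 against HDM media alone and 0.22 against regular media alone. Of 45 entries listed as overlapping other RNA classes, 31 are in the table and 23 were tested, and 1 of them, miR-1246, was called. 15 folds were positive and 8 negative. miR-12135 stood at -0.79 ± 0.21 (edgeR adjusted p = 0.0574), miR-4485-3p at -0.24 ± 0.26 and miR-1248 at 0.03 ± 0.20. Of the 465 tested sequences, 11 lie whole within a small nuclear, nucleolar, Cajal body, transfer or mitochondrial RNA of GENCODE. Their median log2 fold was -0.07, with 5 positive and 6 negative. The 11 include miR-1246, and no other of them lies in a small nuclear RNA. The source of the reads of miR-1246 was not tested.

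Base composition varied little with the fold. The median GC content was 45.5% among the 41 miRNAs higher at an unadjusted p under 0.05, 45.5% among the 50 lower and 47.8% among all 465. Across the 465 miRNAs the correlation of GC content with the log2 fold was 0.069, given as a description of sequences that share the same libraries. The letters GGAG, searched on the mature strand and described as an export motif in some cells, occur in 7.74% of tested sequences, in 5 of the 41 higher and in 1 of the 50 lower. miR-1246 is one of the holders. Of 125 hairpins with both arms tested, the folds of the 2 arms had the same sign in 67. The log2 ratio of the 5p to the 3p arm did not overlap between HF HDM and media libraries in 38 of the 125. miR-194 was among the 38, at 6.95 in HF HDM and 7.65 in media. Some of the 125 have an arm near the floor, such as miR-584 with a mean of 2.64 CPM. Leaving out hairpins with an arm of low mean CPM left 71. Of these, 35 had the same sign and 29 had ratios without overlap.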

How the data were processed

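Libraries were made with the NEXTflex small RNA kit from RNA extracted with miRNeasy, per the labels' protocols. The submitters' processing notes list cutadapt 2.10, Bowtie 1.3.1, FastQC and GRCh38; the counting rule, the annotation release and filters are not given in the sources used here. The deposited values are expected counts per mature miRNA, not normalized, in 1619 entries. Between 53 and 86 values per library held fractions and were rounded.

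The 4 HF HDM and 2 media libraries were fitted with 1 level per arm in edgeR 4.0.16 (quasi-likelihood, TMM, filterByExpr), which left 465 miRNAs with at least 99.9% of each library's counts, 4 residual degrees of freedom, and a biological coefficient of variation, common to all miRNAs, of 0.194. The spread therefore includes filtration, HF number and medium, and p-values measure only that. No pair of libraries was a copy (chi-square per degree of freedom of at least 11.1). The test was checked on simulated data. Those libraries were independent, with a spread common to all miRNAs. The check therefore does not cover libraries that share a source, unlike media or a spread that differs between miRNAs. Named were the called miRNAs of at least 100 CPM in 1 arm without overlap (up to 10 in each direction), 14 fixed ones, the 10 most abundant, the 4 most abundant of the lists described, and up to 5 in each direction called between filtered and unfiltered HDM; miR-320d, miR-142-5p and miR-206 and other single names beyond these were chosen as list members or after their values were seen. Members and lists were chosen with earlier results of these data known. Locations were compared with GENCODE release 29. Alternatives used DESeq2 1.42.0 and limma 3.58.1.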

Additional observations from a re-analysis of the deposited data

Results flagged for a closer look

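Of the 17 miRNAs whose fold against media differed between filtered and unfiltered HF HDM by edgeR's test of filtered minus unfiltered HDM, these were the 5 with the lowest differences and the 1 that was higher in filtered HDM. The log2 differences were -1.92 for let-7i-3p, -1.73 for miR-12136, -1.60 for miR-146a-5p, -1.49 for miR-141-3p, -1.35 for miR-32-5p and 1.80 for miR-4497. The part of depth, HF number or shared harvests in these differences was not tested. None of 50 results (49 miRNAs and the library totals) had a library among the 4 of HF HDM standing far from the other 3 by Dixon's test. The test used log2 CPM for the miRNAs and raw counts for the totals. It says little with 4 libraries: unfiltered HF7, with 205738 counts against 1712723 to 2479939 in the other 3, was not flagged.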

How the results depend on the processing

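The number of miRNAs called between HF HDM and media was 5 of 465 (1.08%). It was 28 of 1380 (2.03%) with no low-count filter and 3 of 332 (0.904%) with at least 50 counts in at least 2 libraries. Of the same 465, DESeq2 called 12 (2.58%) and limma-voom with quality weights 21 (4.52%). limma-trend called 2 (0.430%) and the fit with 3 levels 49 (10.5%). Filtered HF HDM only gave 47 of 498 (9.44%). All 14 libraries by group gave 0 of 637, with 31 of the 637 at an unadjusted p under 0.05. Leaving out each HF HDM library gave 2 to 36. For the difference between filtered and unfiltered HDM, 17 became 8 with no filter and 0 with all 14 libraries (15 at an unadjusted p under 0.05), and leaving out each library gave 4 to 22. The cause of these shifts was not tested. The HF7 minus HF6 differences of filtered and unfiltered HDM correlated at -0.221 across 192 miRNAs. Each difference rests on single libraries, and unfiltered HF7 held 205738 counts. The correlation therefore cannot tell whether libraries of one HF number share a harvest. With HF number as a replicate block the count was 1 (miR-1246), with the crossed pairing, chosen after seeing the data like limma-trend and the 3 levels, it was also 1, and with a random block in limma-voom it was 41, at an estimated within-block correlation of -0.311. Summing within HF number gave 6, without miR-16-5p or miR-320a-3p. miR-16-5p, at an adjusted p of 0.0129 with the random block in limma-voom, was at 0.0695 in the summed edgeR fit. miR-320a-3p was at 0.0152 with that block and at 0.103 in the summed edgeR fit.

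The named log2 folds that changed sign are given here, and the cause was not tested. With no filter they were let-7b-5p at -0.020, miR-20a-5p at -0.029 and miR-1248 at -0.049. miR-15b-5p was at 0.0098 with RLE size factors, 0.010 with DESeq2 and 0.0043 with limma-voom, which put miR-429 at 0.014, and the random block put miR-429 at 0.0028. miR-1248 was at -0.0091 with total counts, -0.0026 with 3 levels and -0.0011 with limma-trend. All 14 libraries gave miR-20a-5p at -0.010 and miR-1248 at -0.059. Summing within HF number gave miR-21-5p at 0.0050, miR-4521 at 0.018, miR-429 at 0.031 and miR-15b-5p at 0.015. Filtered HDM only gave miR-210-3p at -0.27, miR-4521 at 0.062, miR-429 at 0.056, miR-15b-5p at 0.060 and miR-12136 at -0.044. Unfiltered HDM only gave miR-125b-5p at -0.082, let-7b-5p at -0.0092, miR-20a-5p at -0.14, miR-93-5p at -0.049, miR-484 at -0.013, miR-1248 at -0.32, miR-4497 at -0.10 and the median of entries overlapping other RNA classes at -0.045.

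With each of the 6 libraries left out in turn, these log2 folds ran across 0: let-7b-5p from -0.21 to 0.33, miR-1247-5p from -0.28 to 0.83, miR-1248 from -0.11 to 0.12, miR-125b-5p from -0.033 to 0.21, miR-15b-5p from -0.10 to 0.037, miR-20a-5p from -0.076 to 0.13 and miR-21-5p from -0.25 to 0.098. The same held for miR-210-3p from -0.015 to 0.45, miR-215-5p from -0.35 to 0.066, miR-29b-1-5p from -0.17 to 0.013, miR-429 from -0.31 to 0.25, miR-4485-3p from -0.81 to 0.61, miR-4521 from -0.26 to 0.075 and miR-7-5p from -0.15 to 0.44. At the depth of unfiltered HF7, the entries detected fell to 511.75 in filtered HF6, 509.15 in filtered HF7, 519.87 in unfiltered HF6, 529.58 in HDM media and 502.62 in regular media.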
